A study of Mus musculus with 35 samples.

Results

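The 41 genes described here encode the machinery that copies DNA in S phase of the cell cycle, and all 41 symbols named for this set were found among the 21236 genes of the count table. They were chosen by name, from known function, and grouped by role into origin licensing, the MCM2-7 helicase, helicase activation, primase and polymerases, the sliding clamp with its loader and the single-strand binding protein RPA, lagging-strand maturation, nucleotide supply, chromatin assembly and maintenance, and fork checkpoint and repair. RNA was measured in 35 samples of microglia, the resident macrophages of the brain, sorted from midbrain (MB, n = 12), striatum (STR, n = 12) and prefrontal cortex (PFC, n = 11) of 12 adult mice, 6 male and 6 female. All mice were heterozygous Tmem119-2A-CreERT2 and Ai14(RCL-tdTomato)-D animals given tamoxifen, so that cells using the microglial gene Tmem119 carried the red fluorescent protein by which they were sorted, and no group without tamoxifen or without the transgenes was part of the comparison. The male PFC group held 5 samples, and every other group of region and sex held 6.

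Before S phase, the origin recognition complex with Cdc6 and Cdt1 loads the ring of MCM2 to MCM7 onto DNA. Cdc45 and the GINS complex then turn that ring into an active helicase, polymerase alpha with primase lays down primers, and polymerases delta and epsilon extend them on the PCNA clamp. Many of these genes are switched on by E2F transcription factors as a cell leaves G1, while the genes of mitosis peak later. Adult microglia renew slowly, so most cells in such a sort are expected to be outside S phase. In RNA from many cells, a smaller share of cells in S phase and less RNA per cell cannot be told apart.

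The libraries held 37680501 to 54131421 counts, so that 3 counts, the floor used here, stood for 0.0554 to 0.0796 CPM (the usual scaling of counts to library size, here with edgeR's TMM factors). The number of genes with at least 1 count ran from 17714 to 19134 in the midbrain, from 18127 to 19671 in the striatum and from 16725 to 19454 in the PFC. The lowest of these, the PFC sample of mouse 1, also had most genes of the set at 0, namely 8 of 41. Between 0 and 3 genes of the set were at 0 in a midbrain library, between 0 and 4 in a striatum library and between 0 and 8 in a PFC library. Summed over 12 microglial markers, which include Tmem119, P2ry12 and Csf1r, the libraries held 42253 to 53868 CPM. The mean sum was lowest in the midbrain, with 44645 CPM against 49553 in the striatum and 48331 in the PFC. Against the midbrain sample of the same mouse, the striatum sum was higher in 11 of 12 mice and the PFC sum in 11 of 11. Markers of border macrophages summed to 123 CPM in the midbrain sample of mouse 6, of which Ms4a7 gave 97.9, against a median of 6.86 CPM in the midbrain. Markers of blood leukocytes, for which Cd3e and Cd3g were not among the genes of the table, summed to 25.5 CPM at most. That was the same PFC sample of mouse 1, where S100a8 and S100a9 gave 12.1 and 10.8 CPM, against a median sum of 6.02 CPM in the PFC. The column of the striatum sample of mouse 3 was named for the PFC in the table. Its library number matched the sample labelled striatum and no other, so that sample was taken as its label gives it. The conflict is between the regions of the striatum-PFC comparison.

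Most differences found in the set were between the midbrain and the other regions. An effect of region was found for 10 of the 41 genes (edgeR quasi-likelihood test, Benjamini-Hochberg adjusted p under 0.05). Of all genes tested, 8.89% had one. Among genes with a mean of at least 1 CPM, 9 of 33 in the set (27.3%) and 11.6% of all 12297 had one. All 10 genes of the set had their highest mean in the midbrain. They were Rfc2, Mcm5, Rrm2, Gins1, Tk1, Brip1, Prim1, Mcm6, Mcm2 and Uhrf1, and they came from 7 of the 9 roles. All 10 were lower in the PFC than in the midbrain by the test of that pair, a call (adjusted p of region and p of the pair under 0.05, fold change over 1.2) made for 3.24% of all genes in that direction and 2.75% in the other. For all 10 the striatum was called lower than the midbrain too, a call made for 2.98% of all genes, with 3.5% called the other way. Between striatum and PFC, 3 genes of the set (Gins1, Rrm2 and Tk1) were called higher in the striatum, against 2.31% of all genes, and none lower, against 0.833%.

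Over all 41 genes the median log2 fold change was -0.31 for PFC over midbrain and -0.27 for striatum over midbrain, where the medians over all 21236 genes were 0.01 and 0.01. For 28 of the 41, or 68.3%, both fold changes were below 0, a share that was 33.5% over all genes. Between striatum and PFC the median of the set was 0.01, as it was over all genes. The remaining 31 genes had no effect of region at this threshold, and that does not show that they were equal between regions. The last gene inside the threshold was Uhrf1 (adjusted p = 0.0347) and the first outside it was Pcna (adjusted p = 0.0603). When the mouse number was used as a block, the 10 calls stayed and Pcna, Pold1, Mcm7 and Dut joined them (adjusted p = 0.0105, 0.0298, 0.0368 and 0.041). DESeq2 gave the same 10 calls and added Pcna and Fen1 (adjusted p = 0.0341 and 0.0491). The 8.89% of all genes belongs to the fit without the block. The share over all genes is not given for the block or DESeq2, so the added calls cannot be set against it.

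**Figure D1:**
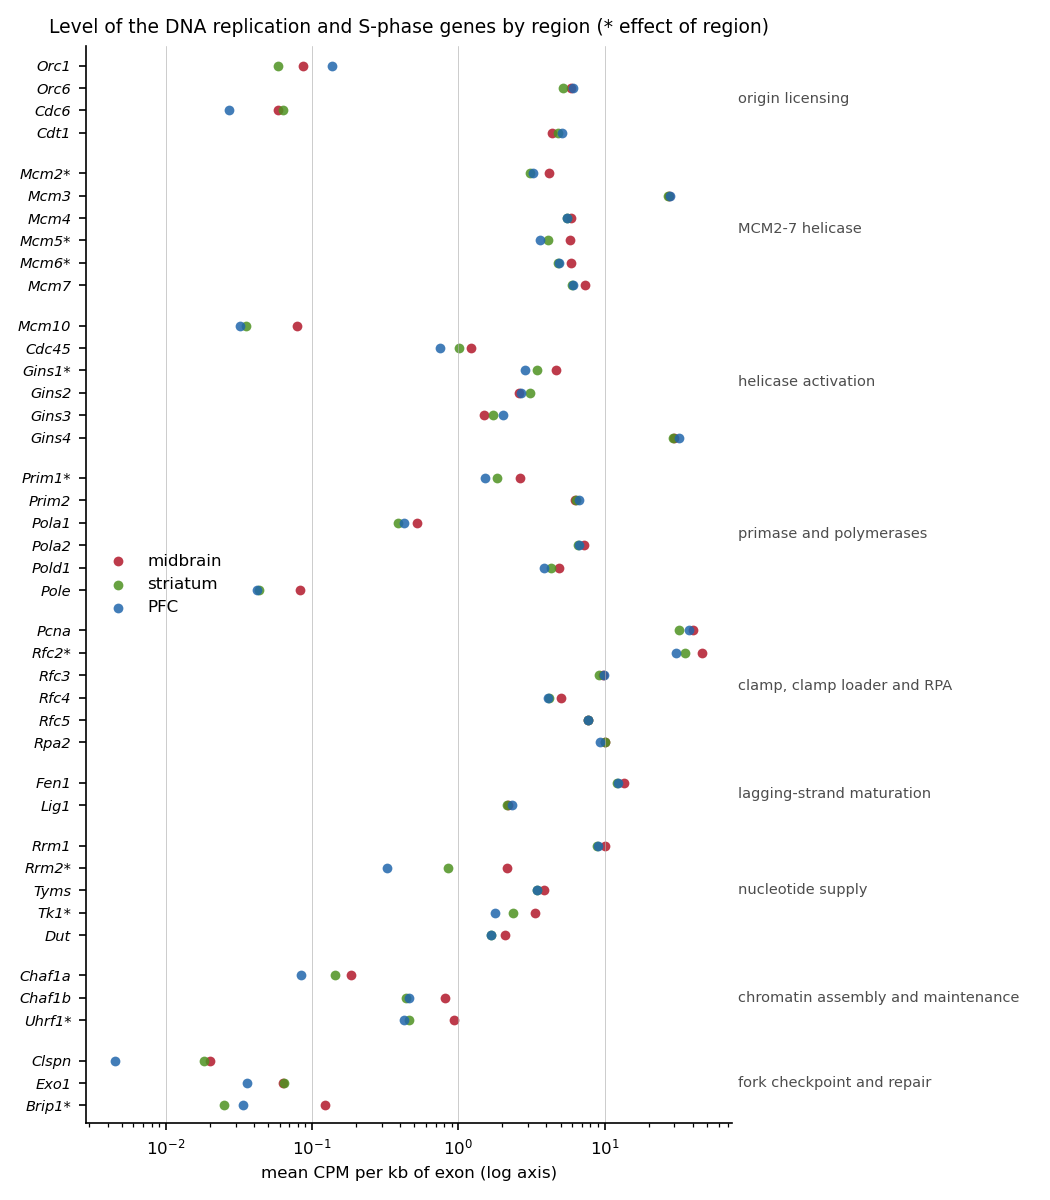
Mean CPM per kilobase of exon (log axis) of the 41 genes in the midbrain, striatum and PFC, ordered by role, with an asterisk at the 10 genes with an effect of region. Levels span from Clspn at 0.0146 to Rfc2 at 37.8 CPM per kb over all samples, and the midbrain point lies farthest right for each gene with an asterisk.

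Levels per kilobase of exon differed far more between genes than between regions. Rfc2, Pcna, Gins4, Mcm3 and Fen1 led, with 37.8, 36.9, 30.5, 27.4 and 12.7 CPM per kb as means over all 35 samples. At the other end, Clspn, Mcm10, Cdc6, Exo1, Pole and Brip1 had 0.0146, 0.0495, 0.0502, 0.055, 0.0567 and 0.0611 CPM per kb. Of the 41 genes, 8 had a mean below 1 CPM and 12 had a count of 0 in at least 1 library, and of the 10 genes with an effect of region only Brip1 was below 1 CPM. Exons of 13 members overlap those of another gene of the table on the opposite strand, and the library preparation does not mark strand, so that reads there cannot be told apart.

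None of the 4 licensing factors passed the test for region. Orc1, the largest subunit of the origin recognition complex, was measured near the floor, at 0.26 ± 0.236 CPM (SD, n = 12) in midbrain samples, 0.176 ± 0.165 (n = 12) in striatum samples and 0.413 ± 0.488 (n = 11) in PFC samples. Orc6, the smallest subunit of that complex, had means of 9.44, 8.22 and 9.63 CPM in the same order. Cdc6, the ATPase that brings the helicase to the origin, had 0.28, 0.302 and 0.129 CPM and was at 0 in 6 of the 11 PFC libraries. Cdt1, its partner in loading, had 9.52, 10.6 and 11.2 CPM. Summed, these 4 genes gave 13.6 to 23.6 CPM per midbrain library, 15.7 to 21.9 per striatum library and 15.6 to 26.2 per PFC library.

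Of the 6 subunits of the MCM2-7 ring, 3 were higher in the midbrain. Mcm5 (ENSMUSG00000005410, chr8:75109569-75128439, GRCm38) ran from 14.7 to 27.2 CPM in the midbrain with a median of 19.6, from 10.2 to 20.1 in the striatum with a median of 13.7, and from 8.39 to 16.1 in the PFC with a median of 12.1. The ranges overlapped, but the PFC sample was below the midbrain sample in 11 of 11 mice and the striatum sample in 11 of 12. Its log2 fold change was -0.70 ± 0.11 (SE) for PFC over midbrain and -0.49 ± 0.11 for striatum over midbrain (adjusted p of region = 3.66e-05).

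Mcm6 (ENSMUSG00000026355, chr1:128331590-128359664) had 18.7 to 32.9 CPM in the midbrain, 18 to 29.4 in the striatum and 15.7 to 25.5 in the PFC, with medians of 26.8, 20.7 and 21.2. The shift was small beside those ranges, at -0.28 ± 0.08 for PFC over midbrain and -0.28 ± 0.08 for striatum over midbrain (adjusted p = 0.0153), and it was lower in the PFC in 11 of 11 mice and in the striatum in 9 of 12. Mcm2 (ENSMUSG00000002870, chr6:88883474-88898780) had 10.2 to 17.5 CPM in the midbrain, 6.43 to 17.1 in the striatum and 6.99 to 13.6 in the PFC, with medians of 13.7, 10.6 and 12.0. Its log2 fold changes were -0.38 ± 0.13 and -0.44 ± 0.13 (adjusted p = 0.0346), and 10 of 11 mice were lower in the PFC and 11 of 12 in the striatum. The call for Mcm2 ended when any 1 of mice 2, 3, 5, 8, 9, 10 and 12 was left out, and that for Mcm6 without mouse 2 or mouse 10. Without the PFC sample of mouse 1, Mcm6 was no longer called between PFC and midbrain.

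The other subunits of the ring did not pass. Mcm3, the most abundant of the ring per kilobase, had 83.6 ± 11.1 CPM in the midbrain, 81.7 ± 5.58 in the striatum and 84.5 ± 11.8 in the PFC. Mcm4 had 21.3, 19.8 and 19.9 CPM, and Mcm7 had 21.6, 17.8 and 17.9 CPM with an adjusted p of 0.115. The proteins of the ring act as a hexamer with 1 copy of each, whereas the transcripts here spanned from 3.5 CPM per kb for Mcm2 to 27.4 for Mcm3.

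**Figure D2:**
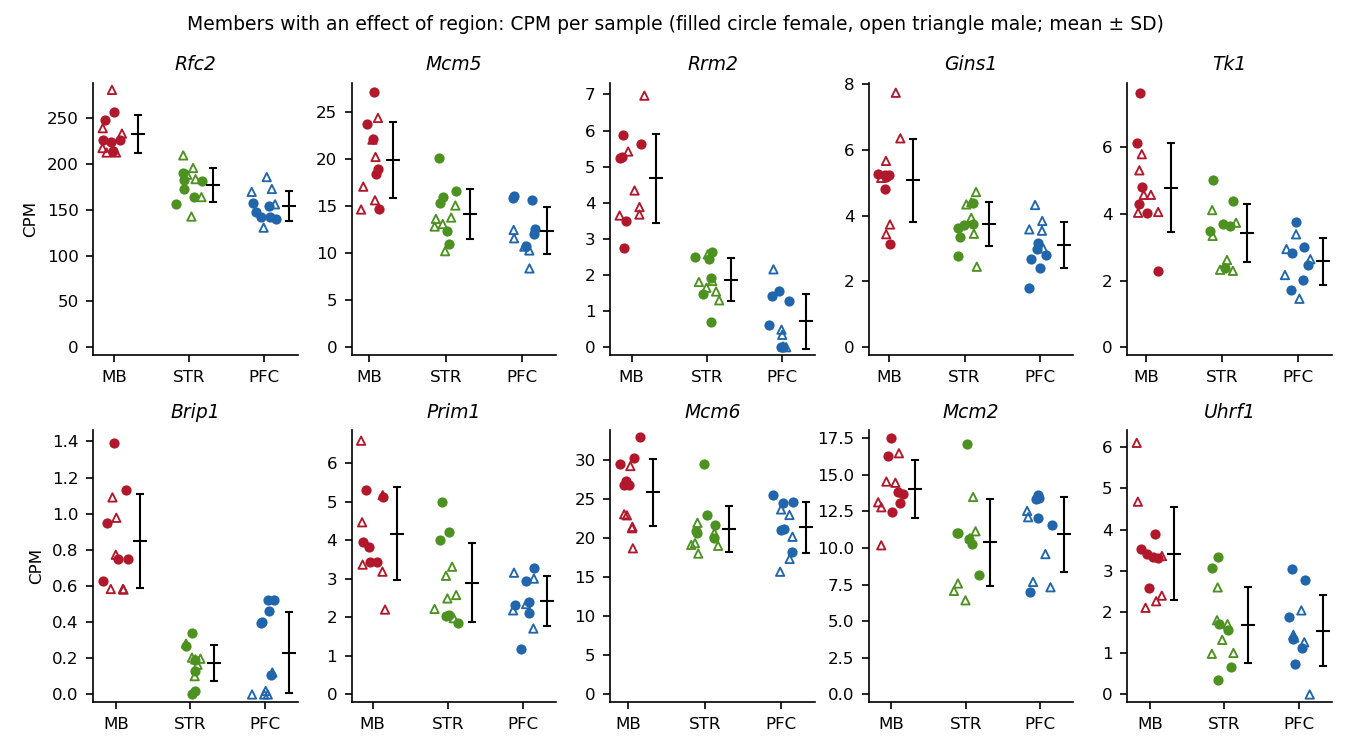
CPM per sample of the 10 genes with an effect of region in the midbrain (MB), striatum (STR) and PFC, with circles for females, triangles for males and bars for the mean ± SD. Every midbrain sample of Rfc2, Rrm2 and Brip1 lies above every striatum and PFC sample, and the other 7 genes overlap.

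The promoters of this set were searched for the E2F letters, because E2F sites are the best known shared feature of S-phase promoters. RefSeq promoter windows (GRCm38.p6) were at hand for 33 of the 41 genes and not for Mcm4, Gins1, Gins2, Gins4, Prim2, Pole, Rfc2 and Exo1. In the 250 bases before the start, 9 of the 33 (27.3%) held TTTGGCGC, TTTCCCGC, TTTGCCGC or TTTCGCGC on either strand, against 2.16% of the 27025 genes with a promoter there. They were Orc1, Cdc6, Mcm5, Mcm6, Mcm7, Gins3, Pola1, Rfc3 and Uhrf1. The letters were found for 3 of the 8 genes with an effect of region that have a window and for 6 of the 25 others. The CHR letters TTTGAA, an element named for mitotic genes, were found in 4 of the 33 (12.1%) against 18.3% of all genes. The windows of the 3 genes with an effect of region are shown because they combine the letters with a difference between regions, with the E2F letters in capitals. They lie at chr8:75109259-75109508 on the plus strand (Mcm5), at chr1:128359706-128359955 on the minus strand (Mcm6), and at chr17:56304063-56304312 on the plus strand before the second of the starts listed for Uhrf1, inside the first intron of its longer transcripts.
Mcm5: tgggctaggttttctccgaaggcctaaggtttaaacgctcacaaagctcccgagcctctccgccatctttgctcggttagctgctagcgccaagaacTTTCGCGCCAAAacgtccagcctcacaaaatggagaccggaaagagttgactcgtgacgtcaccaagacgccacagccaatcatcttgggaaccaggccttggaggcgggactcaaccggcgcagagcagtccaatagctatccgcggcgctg
Mcm6: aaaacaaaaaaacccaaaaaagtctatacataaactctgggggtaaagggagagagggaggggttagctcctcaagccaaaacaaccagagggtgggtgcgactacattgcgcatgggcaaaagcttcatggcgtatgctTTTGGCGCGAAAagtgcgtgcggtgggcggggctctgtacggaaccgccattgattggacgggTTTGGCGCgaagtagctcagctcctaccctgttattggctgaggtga
Uhrf1: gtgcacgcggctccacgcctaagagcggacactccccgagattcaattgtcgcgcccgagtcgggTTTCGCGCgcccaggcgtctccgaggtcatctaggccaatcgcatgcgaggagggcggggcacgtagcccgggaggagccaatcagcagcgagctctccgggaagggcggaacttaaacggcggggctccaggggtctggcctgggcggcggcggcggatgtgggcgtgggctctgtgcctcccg
In Mcm5 a pair of matches on opposite strands overlap in 1 run that begins 153 bases before the start. Mcm6 holds such an overlapping pair 110 bases before the start and another match 47 bases before it. Uhrf1 holds 1 match, 185 bases before that start. A match says that these letters are in the window and not that a factor binds there.

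Among the factors that activate the helicase, Gins1 passed. Gins1 (ENSMUSG00000027454, chr2:150905400-150931280), a GINS subunit, ran from 3.13 to 7.74 CPM in the midbrain, from 2.45 to 4.72 in the striatum and from 1.81 to 4.32 in the PFC, with medians of 5.21, 3.74 and 3. Against the midbrain sample of the same mouse, the PFC sample was lower in 11 of 11 and the striatum sample in 11 of 12. The log2 fold changes were -0.71 ± 0.13 for PFC over midbrain, -0.44 ± 0.13 for striatum over midbrain and 0.27 ± 0.13 for striatum over PFC (adjusted p of region = 0.000974). The striatum-PFC call ended without any 1 of mice 1, 2, 3, 4, 6, 8, 10, 11 and 12, and without the striatum sample of mouse 3.

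The other subunits of GINS, which form 1 complex with Gins1, did not pass. Gins2 had 10.1 ± 2.09 CPM in the midbrain, 12.1 ± 1.92 in the striatum and 10.5 ± 1.81 in the PFC (adjusted p = 0.196). Gins3 had 4.06, 4.65 and 5.47 CPM, and Gins4 had 40.1, 39.8 and 43.6 CPM. Cdc45, which completes the helicase, had 2.6, 2.15 and 1.61 CPM, and Mcm10, a fork factor needed to fire it, had 0.393, 0.176 and 0.159 CPM and was at 0 in 5 PFC libraries.

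Of the primase and polymerase subunits, only Prim1 passed. Prim1 (ENSMUSG00000025395, chr10:128015168-128030037), the catalytic subunit of primase, had 2.2 to 6.58 CPM in the midbrain, 1.85 to 4.99 in the striatum and 1.17 to 3.27 in the PFC, with medians of 3.9, 2.53 and 2.34. The log2 fold changes were -0.79 ± 0.19 for PFC over midbrain and -0.53 ± 0.18 for striatum over midbrain (adjusted p of region = 0.0095). The PFC sample was lower in 10 of 11 mice and the striatum sample in 8 of 12. Its regulatory partner Prim2 had 12.4, 12.6 and 13.2 CPM in midbrain, striatum and PFC. Pola1, the catalytic subunit of polymerase alpha, had 2.79, 2.07 and 2.26 CPM, and Pola2 had 20.9, 18.8 and 19.2. Pold1, the catalytic subunit of polymerase delta, had 16.8, 14.8 and 13.3 CPM, and Pole, that of polymerase epsilon, had 0.616, 0.324 and 0.314.

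The largest count in the set belonged to Rfc2 (ENSMUSG00000023104, chr5:134581366-134601805), a small subunit of the clamp loader, and its values need care. It had 212.4 to 281 CPM in the midbrain, 143 to 209.3 in the striatum and 131 to 186 in the PFC, so that the midbrain samples lay above all others. The log2 fold changes were -0.59 ± 0.06 for PFC over midbrain and -0.39 ± 0.06 for striatum over midbrain (adjusted p of region = 1.75e-08). Exons of Rfc2 overlap 952 bases of Lat2, a membrane adaptor of myeloid cells, on the opposite strand. Lat2 had 306 ± 33.9 CPM in the midbrain, 210.1 ± 30.1 in the striatum and 169 ± 25.5 in the PFC, with log2 fold changes of -0.86 ± 0.08 and -0.54 ± 0.08. The part of Lat2 in the counts of Rfc2 was not tested. The other small clamp loader subunits were far lower and did not pass, with 12.7, 12.1 and 13 CPM for Rfc3, 6.57, 5.46 and 5.37 for Rfc4, and 25.1, 25.0 and 24.8 for Rfc5.

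Pcna, the sliding clamp itself, had 61.3 ± 10.5 CPM in the midbrain, 49.2 ± 7.91 in the striatum and 57.5 ± 9.83 in the PFC, so that its PFC mean lay nearer to the midbrain than to the striatum. Pcna has pseudogenes named after it, and how reads that match several places were counted is not given in the sources used here. Rpa2, which coats single-stranded DNA, had 18.1, 18.2 and 16.9 CPM. Of the genes that join the lagging strand, the flap nuclease Fen1 had 33, 29.4 and 29.7 CPM (adjusted p = 0.114) and the ligase Lig1 had 7.72, 7.56 and 8.16 CPM.

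Nucleotide supply held the largest fold change. Rrm2 (ENSMUSG00000020649, chr12:24708241-24714146), the S-phase subunit of ribonucleotide reductase, ran from 2.76 to 6.97 CPM in the midbrain with a median of 4.79, from 0.7 to 2.65 in the striatum with a median of 1.82, and from 0 to 2.16 in the PFC with a median of 0.487. The lowest midbrain sample was above the highest striatum sample, and 3 of the 11 PFC libraries were at 0. The log2 fold change was -2.74 ± 0.51 for PFC over midbrain, -1.33 ± 0.46 for striatum over midbrain and 1.41 ± 0.49 for striatum over PFC (adjusted p of region = 0.000751). Rrm1, the large subunit that Rrm2 pairs with, did not pass, with 39.9 ± 5.08, 35.6 ± 3.76 and 35.9 ± 4.54 CPM.

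Tk1 (ENSMUSG00000025574, chr11:117815526-117826092), the cytosolic thymidine kinase of S phase, followed the same order. It had 2.29 to 7.62 CPM in the midbrain, 2.29 to 5.03 in the striatum and 1.46 to 3.76 in the PFC, with medians of 4.57, 3.57 and 2.64. The log2 fold changes were -0.90 ± 0.17, -0.49 ± 0.16 and, for striatum over PFC, 0.41 ± 0.17 (adjusted p of region = 0.00099). In mice 7 to 12 alone the PFC over midbrain value was -0.41, against -1.46 in mice 1 to 6, and the striatum-PFC call ended without mouse 4. Tyms, which makes thymidylate, had 12.2, 10.9 and 10.8 CPM, and Dut, which removes dUTP, had 4.53, 3.64 and 3.59.

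Uhrf1 (ENSMUSG00000001228, chr17:56303321-56323486), which recruits the maintenance DNA methyltransferase to new DNA, had 2.11 to 6.11 CPM in the midbrain, 0.35 to 3.34 in the striatum and 0 to 3.04 in the PFC, with medians of 3.35, 1.64 and 1.38. The PFC sample was lower in 11 of 11 mice and the striatum sample in 11 of 12. The log2 fold changes were -1.17 ± 0.36 and -1.03 ± 0.35 (adjusted p of region = 0.0347), and the call ended without any 1 of mice 2, 3, 6, 7, 10, 11 and 12. Chaf1a and Chaf1b, subunits of the chromatin assembly factor that puts histones on new DNA, did not pass, with 1.02, 0.795 and 0.466 CPM and with 1.57, 0.858 and 0.899 CPM.

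Brip1 (ENSMUSG00000034329, chr11:86058138-86201193), a helicase of fork repair, was rare but stood apart in the midbrain. Its samples had 0.58 to 1.39 CPM there with a median of 0.761, 0 to 0.34 in the striatum with a median of 0.193, and 0 to 0.523 in the PFC with a median of 0.121. The ranges did not overlap. The log2 fold changes were -2.18 ± 0.56 for PFC over midbrain and -2.21 ± 0.52 for striatum over midbrain (adjusted p of region = 0.00189). The nuclease Exo1 had 0.496, 0.497 and 0.281 CPM, and Clspn, which carries the fork checkpoint signal, had 0.101, 0.0923 and 0.0227 CPM and was at 0 in 15 of 35 libraries (adjusted p = 0.311).

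**Figure D3:**
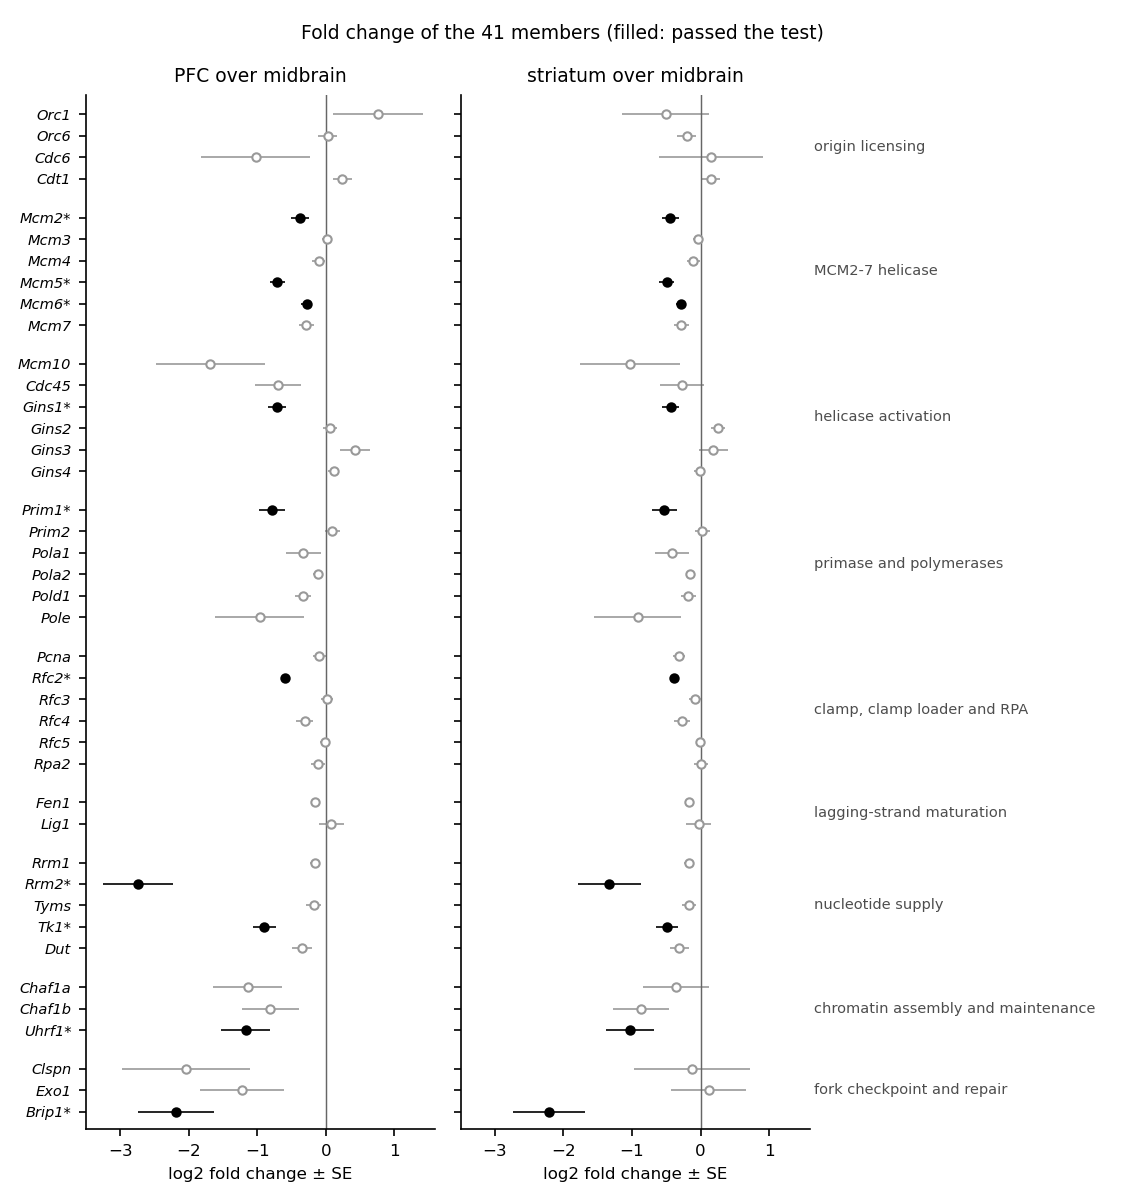
Log2 fold change ± SE of the 41 genes for PFC over midbrain and striatum over midbrain, ordered by role, with filled points for genes that passed the test. All filled points lie below 0, from -0.28 for Mcm6 to -2.74 for Rrm2 in PFC over midbrain, and the rarest genes have the widest bars.

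Samples of the midbrain lay wholly above those of the PFC for 3 of the 41 genes (Rfc2, Rrm2 and Brip1), as for 0.348% of all genes, and the same 3 lay wholly above those of the striatum, as for 0.155% of all genes. Of the 10 genes, Rfc2, Mcm5, Rrm2, Gins1, Tk1, Brip1 and Prim1 kept the effect of region in each of the 12 fits without 1 mouse. The fit without mouse 6, whose midbrain sample held the border macrophage markers, called 10 genes, with Uhrf1 lost and Fen1 gained, and the fit without the PFC sample of mouse 1 called the same 10. In mice 1 to 6 alone, 4 of the 10 were called and in mice 7 to 12 alone 6, 3 of them in both. All 10 had both fold changes below 0 in each set of mice, as had 25 of all 41 genes. The 10 were chosen by a fit that holds both sets, so their kept direction is no separate support. Between these sets of mice, 7 of the 41 genes differed at an adjusted p under 0.05. They were Orc6, Mcm5, Gins4, Prim1, Rpa2, Tyms and Dut, all lower in mice 7 to 12. Of all 21236 genes, 5083 differed, which is a larger share than in the set. The directions over all genes are not given here. The labels name no batch for these sets of mice.

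Summed over the 40 genes other than Rfc2, expression was 564 ± 30.6 CPM in the midbrain, 505 ± 21.6 in the striatum and 516 ± 32.2 in the PFC. The midbrain sample held the higher sum in 12 of 12 mice against the striatum and in 11 of 11 against the PFC, although the ranges overlapped. Most of that sum came from genes with no effect of region. The 9 genes with an effect other than Rfc2 summed to 82.8 ± 10.2, 59.5 ± 8.91 and 55.3 ± 6.95 CPM, and these groups were chosen by that difference.

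Other genes of the cell cycle were read from lists fixed by function. Of 44 other replication genes, 6 had an effect of region (13.6%). Of all genes 8.89% had one, and of those with a mean of at least 1 CPM 11.6%. All 6 replication genes were lower in the PFC than in the midbrain and 5 lower in the striatum. They included Dna2, a nuclease and helicase of Okazaki fragments, at 3.02 ± 1.33 CPM in the midbrain, 1.52 ± 0.597 in the striatum and 0.548 ± 0.433 in the PFC (adjusted p = 7.56e-05). Wdhd1, which ties polymerase alpha to the helicase, had 2.44, 1.63 and 1.25 CPM. Samhd1, which breaks down deoxynucleotides, and Dck, which salvages them, had 61.1, 45.6 and 49 CPM and 28.1, 21.7 and 21.3 CPM. Slbp, which binds histone mRNA, had 119, 90.3 and 98.8 CPM. The median log2 fold change of this list was -0.04 for PFC over midbrain and -0.06 for striatum over midbrain, near those of all genes.

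Of 32 regulators of the G1/S transition, 7 had an effect of region (21.9%), with 6 called lower in the PFC than in the midbrain and 5 lower in the striatum. E2f1 and E2f2, activators of the S-phase genes, had 4.44 ± 1.12, 2.24 ± 0.847 and 1.96 ± 0.701 CPM and 4.72 ± 1.52, 2.98 ± 0.974 and 2.1 ± 0.833 CPM in midbrain, striatum and PFC. Cyclins Ccne2 and Ccna2 had 4.17, 2.86 and 2.55 CPM and 15.5, 12.0 and 11.7 CPM. Cdkn1a, which encodes the p21 inhibitor of the cell cycle, moved the same way, with 238 ± 70.4, 108 ± 41.4 and 133 ± 52.1 CPM (adjusted p = 0.000685). So the genes called higher in the midbrain included both activators and an inhibitor of S-phase entry.

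Mitosis genes had larger fold changes between regions. Of 22, 19 had an effect of region (86.4%), all 19 lower in the PFC than in the midbrain, 15 lower in striatum than in midbrain and 13 higher in striatum than in PFC. The median log2 fold changes were -2.07 for PFC over midbrain and -1.07 for striatum over midbrain, against -0.31 and -0.27 for the 41 replication genes. The kinase Cdk1 had 7.16 ± 1.72, 3.63 ± 0.775 and 2.83 ± 0.787 CPM (adjusted p = 1.98e-08), and Aurka, Cdc20, Ube2c and Nusap1, which act in the spindle or the anaphase complex, had log2 fold changes of -1.69, -1.81, -2.33 and -2.20 for PFC over midbrain. Top2a, which untangles chromosomes, had 6.04 ± 2.26, 2.68 ± 0.994 and 1.23 ± 0.884 CPM. Mki67, the proliferation marker, had only 0.4 ± 0.281, 0.321 ± 0.188 and 0.0772 ± 0.0609 CPM.

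**Figure D4:**
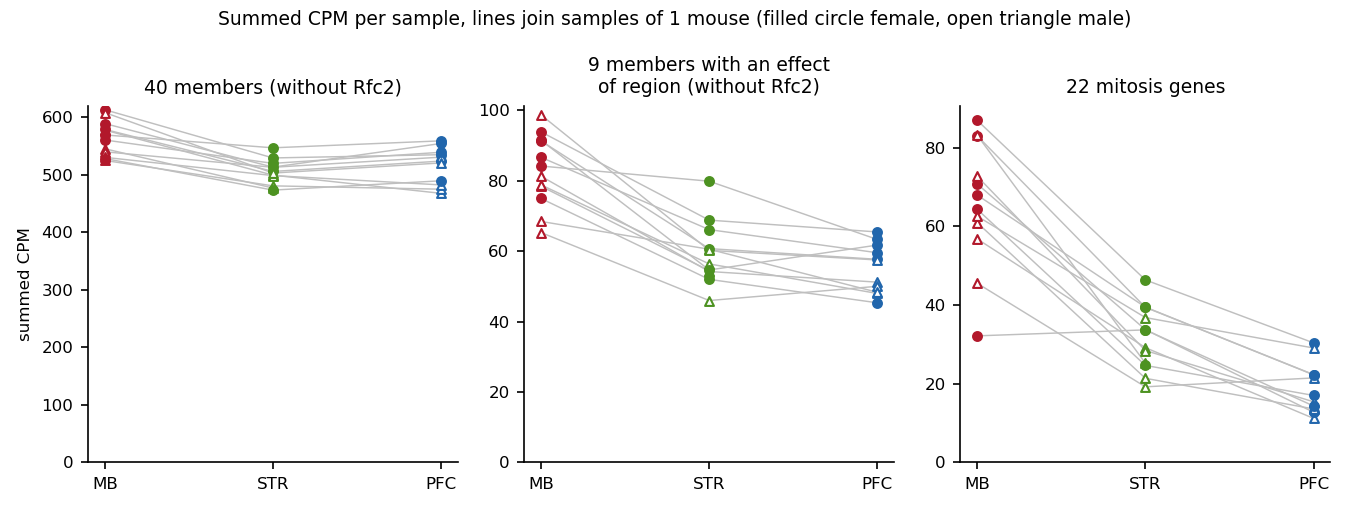
Summed CPM per sample of 40 replication genes (without Rfc2), of the 9 with an effect of region among them and of 22 mitosis genes, with lines that join the samples of 1 mouse, circles for females and triangles for males. The axes start at 0, and the midbrain sums of the mitosis genes (32.2 to 86.9 CPM) lie above all PFC sums (11.2 to 30.4 CPM).

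Markers of other cells also differed between regions. Markers of neurons summed to 4 to 8.55 CPM in the midbrain, 7.64 to 17.4 in the striatum and 11.5 to 31.5 in the PFC, and those of astrocytes to 217.99 to 281, 278 to 504 and 271 to 571 CPM. Oligodendrocyte markers summed to 304 to 508, 299.7 to 840 and 231 to 527 CPM, their progenitors' markers to 1.77 to 9.23, 2.57 to 22.1 and 1.65 to 11.6, and endothelial markers to 11.7 to 40.9, 24.9 to 63.2 and 18.6 to 45.0. Neural progenitors and neuroblasts are the dividing cells of the adult striatal border. Their 7 markers summed to 0 to 0.64 CPM in the midbrain, with Dcx, Dlx1 and Igfbpl1 at 0 in all 12 midbrain libraries, against 1.69 to 7.57 in the striatum and 0.09 to 6.05 in the PFC. The mean sums for neurons, astrocytes, endothelial cells and neural progenitors were lowest in the midbrain, while those for oligodendrocytes (399 CPM in midbrain, 479 in striatum and 336 in PFC) and their progenitors (6.49, 8.24 and 4.93) were lowest in the PFC. Pecam1 gave most of the endothelial sum and, like Kdr, Cdh5 and Tek, had its lowest mean in the midbrain. Cldn5, Flt1 and Ly6c1 had theirs in the PFC, with 1.08, 2.29 and 0.532 CPM for Flt1 in midbrain, striatum and PFC. No endothelial marker passed the test for region. Slc1a3 gave most of the astrocyte sum, and of the astrocyte markers only Gfap had its highest mean in the midbrain. Border macrophage markers had mean sums of 16.8, 6.59 and 7.24 CPM in midbrain, striatum and PFC, with medians of 6.86, 6.18 and 7.34. Leukocyte markers had mean sums of 5.57, 4.7 and 7.59 CPM. Ms4a7, Cd79a and Ly6c2 had their highest mean in the midbrain (adjusted p of region = 0.00164, 0.011 and 0.0337). Ccr2 was lowest there (adjusted p = 0.000826). Ms4a7 had medians of 2.26, 0.426 and 0.108 CPM, and Ccr2 had means of 1.34, 2.59 and 4.05. Ly6c2 had medians of 0.0107, 0.0209 and 0 CPM. It was at 0 in 6 of 12 midbrain libraries and had 3.63 CPM in the highest. The border macrophage marker Mrc1 had no effect of region (adjusted p = 0.499) and was highest in the PFC. Its means were 4.18, 3.81 and 5.61 CPM and its medians 2.56, 3.99 and 5.37. The part of other cells in the differences between regions was not tested.

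Sex was compared next, across the regions and within each. Across regions, the samples of 1 mouse were taken as independent, so those p-values measure the spread between samples and not between mice. In the model with both region and sex, 31 of the 41 genes had lower fitted expression in males, with a median log2 fold change of -0.09, where 10441 of 21236 genes did and the median was 0.00. By an unadjusted p under 0.05 and a fold change over 1.2, only Exo1 was called, lower in males, where 1.48% of all genes were called lower and 2.66% higher. Exo1 (ENSMUSG00000039748, chr1:175880581-175913489) had a log2 fold change of -1.09 ± 0.51 for male over female (edgeR adjusted p = 0.59), and the call ended without any 1 of mice 1, 5, 7, 8, 9, 10 and 11 and without the PFC sample of mouse 1, while 6 genes were called without mouse 12. At an adjusted p under 0.05 with edgeR, where 0.339% of all genes passed, no gene of the set did. By edgeR, 5 genes of the set had an unadjusted p under 0.05. DESeq2 called 1 at an adjusted p under 0.05, Mcm6 (adjusted p = 0.0227). Shares over all genes are not given for the unadjusted p or for DESeq2. Mcm6 had a log2 fold change of -0.24 ± 0.06 with edgeR (adjusted p = 0.098), and all 6 subunits of the MCM2-7 ring had values below 0.

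Within regions, the midbrain had 1 call, where 4.84% of all genes were called. Mcm6 was 22.7 ± 3.53 CPM (n = 6) in males and 28.9 ± 2.45 (n = 6) in females there, a log2 fold change of -0.35 ± 0.11 (edgeR unadjusted p = 0.00371, adjusted p = 0.723). In the striatum, where 2.28% of all genes were called, edgeR called no gene of the set, with 0 at an unadjusted p under 0.05, and DESeq2 called none. In the PFC 6 were called, where 5.29% of all genes were, with Mcm5, Mcm10, Pola1, Exo1 and Brip1 lower in males and Gins1 higher. Of these, Brip1 and Exo1 passed an adjusted p under 0.05 (0.0438 and 0.048).

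In the PFC, 3 rare genes had lower mean levels in males. Brip1 had 0 to 6 counts per library in the 5 males, with 3 libraries at 0, and 5 to 27 in the 6 females. The sums were 7 and 120 counts, a ratio of male to female, scaled to the total counts, of 0.0723 (95% exact interval 0.0285 to 0.154, for counting error only). Exo1 had 0 to 4 counts in males and 0 to 44 in females, with sums of 5 and 142 and a ratio of 0.0437 (0.014 to 0.104). Mcm10 had 3 counts in all in males, 4 of the 5 libraries being at 0, and 84 in females, a ratio of 0.0443 (0.00896 to 0.134). The ranges of males and females overlapped for each of these 3 genes. The female library of mouse 12 was below the highest male for Brip1, that of mouse 4 for Exo1, and those of mice 6 and 12 for Mcm10.

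In the other regions, none of these 3 genes was called for sex. Brip1 had 0.764 ± 0.224 CPM in males and 0.932 ± 0.287 in females in the midbrain and 0.191 ± 0.0584 and 0.158 ± 0.136 in the striatum, against 0.0281 ± 0.0527 and 0.402 ± 0.154 in the PFC. The calls for Brip1, Exo1 and Mcm10 in the PFC were kept in each of the 12 fits without 1 mouse. Those for Mcm5, Gins1 and Pola1 were each lost without mouse 8, which left 3 calls, and the call for Pola1 was kept in only 3 of the 12 fits and lost without the PFC sample of mouse 1. In mice 7 to 12 alone 3 of the 6 calls were kept (Exo1, Brip1 and Gins1). Gins1 had 3.66 ± 0.48 CPM in PFC males and 2.64 ± 0.481 in PFC females. Mcm5 had 10.7 ± 1.54 and 13.8 ± 2.31 CPM and Pola1 1.65 ± 0.461 and 2.77 ± 0.836.

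A test of whether the sex differences differed between regions called none of the 41 genes and 0% of all genes at an adjusted p under 0.05 with edgeR. At an unadjusted p under 0.05 there were 3 of the 41 (Brip1, Exo1 and Mcm10) among 632 of all genes, and DESeq2 called 1, Brip1 (adjusted p = 0.0179). Members at 0 numbered 2 to 8 per PFC library of males and 0 to 5 of females, while genes detected ran from 16725 to 19189 and from 17895 to 19454, and the part of library content in these sex differences was not tested.

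**Figure D5:**
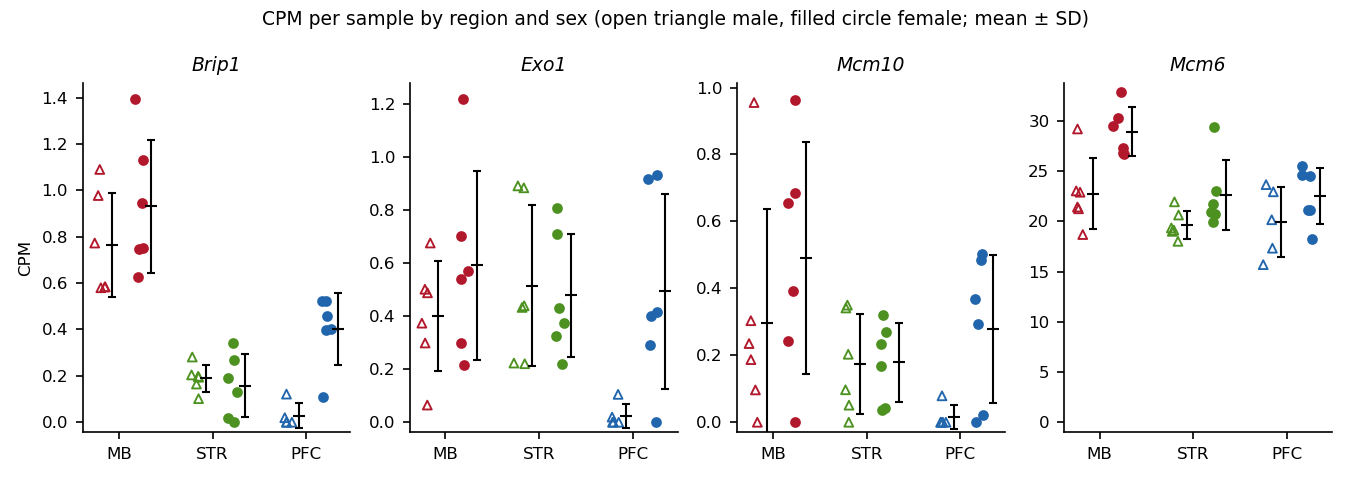
CPM per sample of Brip1, Exo1, Mcm10 and Mcm6 by region (MB, STR, PFC) and sex, with triangles for males, circles for females and bars for the mean ± SD. In the PFC the males of the first 3 genes lie at or below 0.121 CPM, and in the midbrain the Mcm6 mean is 22.7 CPM in males and 28.9 in females.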

How the data were processed

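Microglial RNA from 35 samples was converted to cDNA with a Smart-Seq HT kit and sequenced as paired reads. The authors deposited 1 table of raw counts per Ensembl gene, made after FastQC, Trimmomatic and HISAT2 alignment to GRCm38. The counting tool, the annotation release, the strand setting and the treatment of reads with several matches are not given in the sources used here. The authors state a filter at 1 CPM in a subgroup, yet 12857 of the 21236 genes deposited reach a mean of 1 CPM in a group of region and sex, so no such filter was assumed. Symbols, positions and exon lengths came from GENCODE M21 (GRCm38), which matched 21103 genes, and promoters from RefSeq (GRCm38.p6).

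Counts were fitted over all genes with edgeR 4.0.16 (R 4.3.3, TMM, robust quasi-likelihood) on region and sex, as in the study's model. A region call was made at an adjusted p under 0.05. A pair of regions also needed an unadjusted p under 0.05 and a fold change over 1.2, and sex needed the latter pair of criteria alone. Sex within regions and the interaction came from a model with 1 mean per region and sex. The SE is the log2 fold change divided by the root of F. Exact intervals of counts cover counting error only. The fits were tested on simulated data. Samples of 1 mouse from different regions deviated together over 12297 genes (mean r = 0.225 over 34 pairs). Different mice of 1 sex, in different regions, had a mean r of -0.0431 over 170 pairs. Deviations were taken from the mean of region and sex, so a positive first value pushes the second below 0. The number in the labels names the animal, so that mouse served as a block in an alternative. The fit without the block does not carry the dependence between samples of 1 mouse. Its p-values measure the spread between samples, with those of 1 mouse taken as independent. For sex across regions, it thus counts 17 male and 18 female samples of 6 mice per sex. A block by mouse cannot be used for that comparison, because each mouse has 1 sex. Other alternatives were DESeq2 1.42.0, its size factors, filterByExpr, mice 1 to 6, mice 7 to 12 and each mouse left out. The fit without the PFC sample of mouse 1 was chosen after seeing the data.

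The members, lists and sets of mice were chosen with earlier results of these data known. All members were named, with full values for those with an effect of region or called for sex, and up to 5 called genes of each related list by p, with Mki67 and Top2a in any case. Figures were drawn with matplotlib 3.10.9.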

Additional observations from a re-analysis of the deposited data

How the results depend on the processing

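For the 24 fold changes of called genes, 479 values under alternatives all kept their direction, 400 of them still called and 79 not. The alternatives use the samples that gave the calls, so the kept direction is no separate support. With mouse as a replicate block, 14 genes had an effect of region in place of 10, with 13 called for PFC and 13 for striatum against midbrain, and no call was lost. DESeq2 gave 12 genes with an effect of region, the 10 with Pcna and Fen1. The effect of region fell to 4 genes in mice 1 to 6 and 6 in mice 7 to 12, the PFC-midbrain calls from 10 to 4 and 6, and the striatum-midbrain calls from 10 to 3 and 6. An adjusted p for the pair left 6 calls between striatum and midbrain and 0 of 3 between striatum and PFC. For sex across regions, where 1 gene was called, mice 1 to 6 gave 3, DESeq2 3, no minimum fold change 5, an adjusted p 0 and the fit without the PFC sample of mouse 1 gave 0. Within the midbrain the 1 call became 0 in mice 7 to 12 and 0 by an adjusted p. Within the striatum, 0 became 2 in mice 1 to 6, and within the PFC, 6 became 3 in mice 7 to 12 and 2 by an adjusted p. DESeq2 called 1 interaction where edgeR called 0. The fits on mice 1 to 6 and 7 to 12 hold fewer samples, and the cause of the other changes was not tested. Shares over all genes are not given for these alternatives, so their counts have no background beside them.

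With each mouse left out in turn, the effect of region was called for 7 to 10 genes, PFC against midbrain for 7 to 10, striatum against midbrain for 7 to 10, striatum against PFC for 1 to 3 (1 without mouse 4), sex for 0 to 6, sex within the midbrain for 1 to 2, within the striatum for 0 to 2 and within the PFC for 3 to 7, and the interaction for 0. Depth limits the 8 genes with a mean below 1 CPM, for which a few counts set a library's value.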
